A study of Mus musculus with 12 samples.

Results

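The immunity-related GTPases (IRGs) and the guanylate-binding proteins (GBPs) are families of GTPases that cells make in response to interferons. The account follows 10 of these genes: Iigp1, Igtp, Irgm1 and Irgm2 of the IRG family, and Gbp2, Gbp3, Gbp5, Gbp6, Gbp7 and Gbp9 of the GBP family. They were chosen by gene name, with their paclitaxel responses in these libraries already known, out of 55421 genes in the deposited count table. Each symbol matched exactly 1 row, and all 10 passed the low-count filter that left 18108 genes for testing. Because of that choice, their paclitaxel responses, their differences between vesicle labels under paclitaxel and the interaction are given as descriptions with no p-value.

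RNA was sequenced from MOC2, a mouse oral squamous cell carcinoma line, in a 2 by 2 design with 3 libraries per group and 12 in all. A derivative named MOC2-25 was labelled EV-proficient, EV standing for extracellular vesicle, and another named MOC2-27, in which the release of vesicles was blocked genetically, was labelled EV-deficient; the labels name no gene. Each was sampled as a control carrying DMSO as its treatment label, and 48 h after addition of 600 nM paclitaxel, which stabilises microtubules and was given to make the cells senescent. The groups are called EV-proficient DMSO, EV-proficient paclitaxel, EV-deficient DMSO and EV-deficient paclitaxel. According to the labels each vesicle state is a single derivative line, in which the block of vesicle release and any other property of that line cannot be told apart. The study asked what the vesicles of senescent tumour cells add to the signals those cells send. The labels do not say whether replicates were separate cultures, and p-values here measure the spread between these libraries, which may be technical.

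Interferons signal through receptors at the cell surface and Janus kinases to transcription factors of the STAT and IRF families. Type I interferons act mainly through an interferon-stimulated response element (ISRE) in their target promoters, and interferon gamma mainly through a gamma-activated site (GAS). IRG proteins fall into effectors such as Iigp1 (Irga6), which load onto the vacuoles of intracellular parasites and break them, and regulators such as Irgm1, Irgm2 and Igtp (Irgm3), which sit on the cell's own membranes and hold the effectors inactive there. GBPs are larger, dynamin-related GTPases that assemble on bacteria and on parasite vacuoles and promote inflammasome signalling through caspase-11.

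In the GENCODE M21 annotation of GRCm38, Irgm1 is on chromosome 11 at 48861968 to 48871683 on the minus strand. Igtp (58199556 to 58207591) and Irgm2 (58199618 to 58222782) are both on the plus strand of the same chromosome, and 162 exonic bases belong to both. Gbp5, Gbp7, Gbp3 and Gbp2 follow one another on the plus strand of chromosome 3 between 142493978 and 142638008. Gbp9 (105077630 to 105139539) and Gbp6 (105270702 to 105293698) are on the minus strand of chromosome 5. Iigp1 lies apart from the others.

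The promoters are shown because the members moved together, and the stretches that carry interferon-type motifs lie close to their start sites. RefSeq promoters of build GRCm38.p6 were at hand for 7 of the 10 members and not for Iigp1, Gbp6 and Gbp9. Of these, 5 windows of 180 bases that end at the base before the start site are printed 5′ to 3′ on the gene's strand, with matches to an ISRE core (TTTC, any 2 bases, TTTC, on either strand) or a GAS (TTC, any 3 bases, GAA) in capitals. Start sites are those of RefSeq. They coincide with a GENCODE transcript start for Gbp5, Irgm1 and Igtp. The nearest GENCODE start lies 6 bases downstream for Gbp7, 8 and 55 for the 2 promoters of Gbp3 and 31 for Irgm2, and upstream of the RefSeq start for Gbp2 (142620635 against 142620663). The Irgm2 start site is also far inside the gene span above, which begins at 58199618. The windows are chr11:48871421-48871600 (minus strand) for Irgm1, chr11:58199376-58199555 for Igtp, chr11:58214797-58214976 for Irgm2, chr3:142620483-142620662 for Gbp2 and chr3:142530156-142530335 for Gbp7.
Irgm1: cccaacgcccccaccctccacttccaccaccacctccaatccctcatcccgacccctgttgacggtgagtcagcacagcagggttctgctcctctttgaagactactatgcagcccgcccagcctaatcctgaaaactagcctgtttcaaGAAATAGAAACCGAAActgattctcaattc
Igtp: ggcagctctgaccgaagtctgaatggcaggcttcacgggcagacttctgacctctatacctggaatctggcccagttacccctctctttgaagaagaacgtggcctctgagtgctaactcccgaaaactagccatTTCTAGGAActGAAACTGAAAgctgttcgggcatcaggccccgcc
Irgm2: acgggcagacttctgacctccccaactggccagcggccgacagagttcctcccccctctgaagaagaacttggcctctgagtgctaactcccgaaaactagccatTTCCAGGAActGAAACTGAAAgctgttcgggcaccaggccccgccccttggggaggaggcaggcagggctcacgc
Gbp2: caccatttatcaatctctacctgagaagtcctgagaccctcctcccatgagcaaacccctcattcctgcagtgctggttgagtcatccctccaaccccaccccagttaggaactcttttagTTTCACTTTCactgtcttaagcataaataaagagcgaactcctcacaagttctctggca
Gbp7: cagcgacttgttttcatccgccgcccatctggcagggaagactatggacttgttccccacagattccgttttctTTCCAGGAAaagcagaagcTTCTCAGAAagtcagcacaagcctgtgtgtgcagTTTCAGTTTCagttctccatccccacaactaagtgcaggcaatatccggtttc

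An ISRE core was found within the 250 bases before the start in 7 of the 7 members with a promoter, against 2.98% of 32851 mouse promoters of that length. Of the 2 promoters listed for Gbp3, 1 held it. A GAS was found in 4 of the 7 (Igtp, Irgm2, Gbp5 and Gbp7), against 7.02% of all promoters. The ISRE cores began between -165 (Gbp5) and -24 (Irgm1, the nearer of its 2) from the start site. Irgm1 and Gbp3 each held 2 ISRE cores that overlapped, while no ISRE core overlapped a GAS in these 7 members. In Igtp and Irgm2 the GAS and the ISRE core lay side by side, and over the 60 bases that end at the ISRE core the promoters of these genes shared 58 identical bases. With a longer spelling of the ISRE (GAAA, any 2 bases, GAAACT) 5 of 7 members and 0.222% of all promoters had a match, and with 4 bases in place of 3 inside the GAS the counts were 1 of 7 and 5.85%. A match is a run of letters and does not show that a factor binds there.

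Library totals ran from 23263472 to 62955757 counts, the lowest being EV-proficient paclitaxel replicate 3. Levels below are CPM, counts scaled to a common library size by TMM, on which 3 counts correspond to 0.0492 to 0.121 CPM depending on the library. A group in which every library had at most 3 counts is called at the floor. The marker genes of epithelium summed to 5881 to 6290 CPM in EV-proficient DMSO and 6224 to 6686 in EV-deficient DMSO, and to 4302 to 4619 and 3690 to 3914 CPM in the paclitaxel libraries with these labels. They were thus lower with paclitaxel, in the reverse of the members' order there, and their part in the results was not tested. Among them Krt6a averaged 42.0 and 318 CPM in the DMSO groups and 15.5 and 2.48 CPM with paclitaxel. Krt8, Krt18 and Cdh1 were abundant in every group, whereas the basal squamous genes Krt5 and Trp63 had at most 8 and 11 counts in a library. Other genes of basal cells were present, with group means of 80.0 to 681 CPM for Krt14, 536 to 706 for Itga6 and 196 to 367 for Itgb4. Differences between the EV labels turned round with the treatment, and the cause was not tested. Of 2834 genes called between labels under both treatments, 112 (3.95%) had the same sign. A row named dngfr that the authors added to the gene table showed the same turn, with 8.99 ± 3.23 CPM (SD, n = 3) in EV-proficient DMSO and 2.15 ± 0.35 in EV-deficient DMSO, but 3.24 ± 0.68 and 10.9 ± 1.4 in the paclitaxel libraries with these labels. Directions between labels therefore hold for the libraries as labelled. Counts of calls for the members, relatives and lists are also given with the DMSO libraries crossed between labels, as are the values of some genes, but no fitted value against a group at the floor. Under this alternative 30.1% of all genes were called higher and 26.8% lower with the EV-proficient label, and 32.6% and 28.8% with the EV-deficient label.

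All 10 members had their highest level in the libraries labelled EV-deficient paclitaxel, the next highest in those labelled EV-proficient paclitaxel, and low levels in both DMSO groups. No library of a paclitaxel group overlapped with a DMSO library of either label in any member, and the 2 paclitaxel groups did not overlap in any member either. The DMSO groups, the lower neighbours in this order, were separate only for Igtp, Irgm1 and Gbp7. The plot of the members by library shows the steps.

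**Figure D1:**
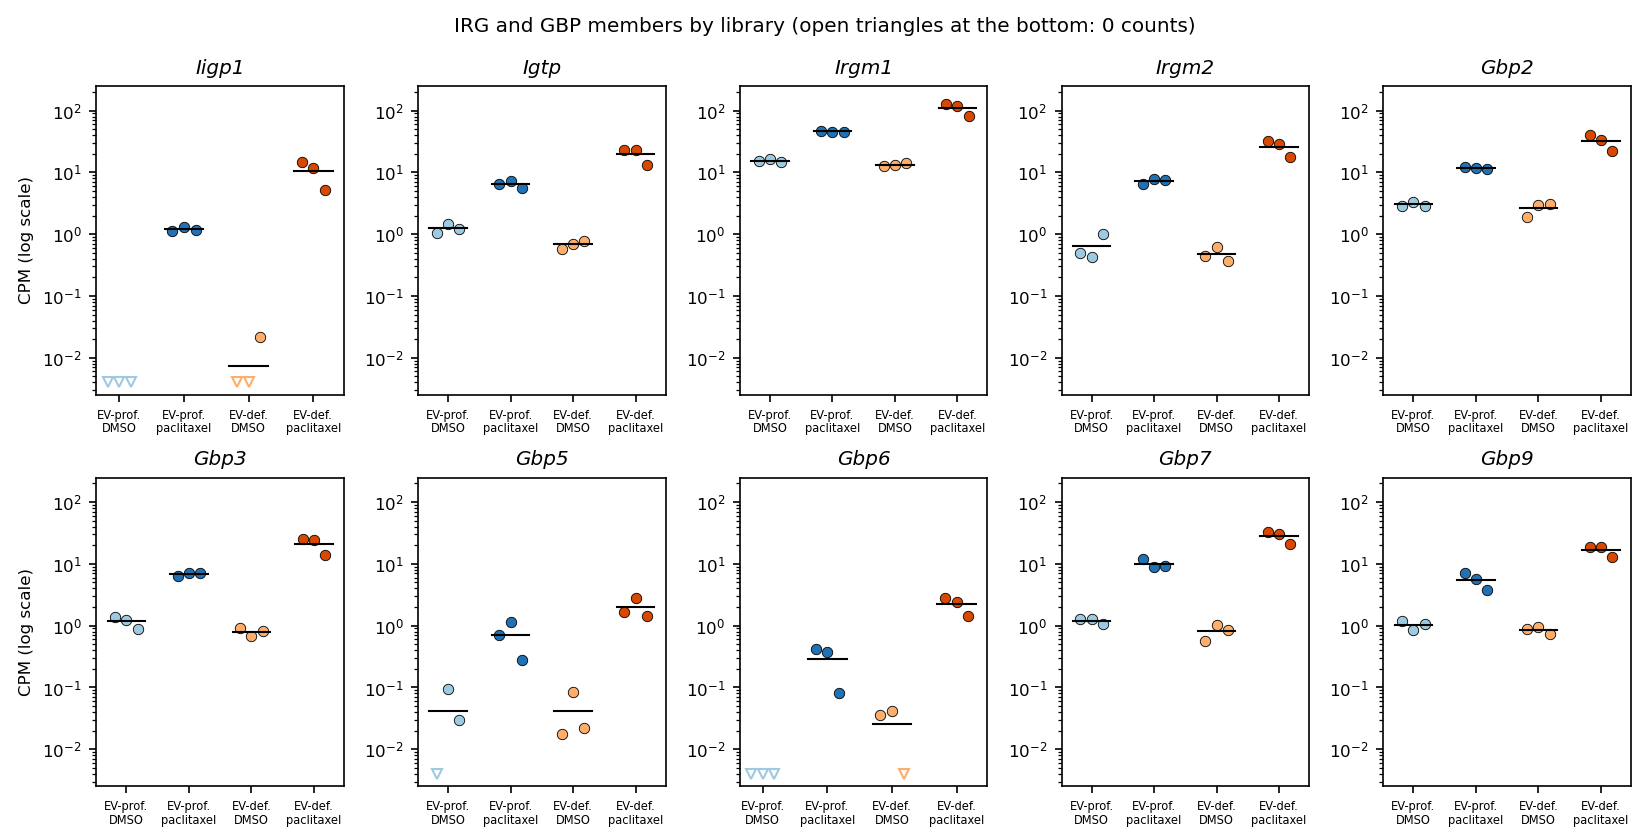
Level of each of the 10 members in the 12 libraries. The vertical axis is CPM on a log scale, points are single libraries, horizontal lines are group means, and open triangles at the bottom mark libraries with 0 counts; in every panel the 3 EV-deficient paclitaxel libraries lie above the 3 EV-proficient paclitaxel libraries, and both above DMSO.

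Irgm1, a regulator that guards the cell's own membranes, was well above the floor in every library. It stood at 15.2, 16.3 and 14.5 CPM in EV-proficient DMSO and at 12.7, 12.97 and 14.0 in EV-deficient DMSO. Under paclitaxel it read 47.1, 45.5 and 45.8 CPM with the EV-proficient label and 129, 118 and 82.2 with the EV-deficient label. The EV-proficient paclitaxel libraries were close to one another, while the third EV-deficient paclitaxel library was well below the other 2. The log2 fold change under paclitaxel was 1.59 ± 0.12 (SE) with the EV-proficient label and 3.05 ± 0.12 with the EV-deficient one, the smallest of the members in each label apart from members at the floor, for which only bounds are given below.

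Irgm2, another regulator, stood without drug at 0.487, 0.431 and 1.02 CPM in EV-proficient DMSO and 0.446, 0.626 and 0.373 in EV-deficient DMSO. With paclitaxel it reached 6.58, 7.72 and 7.48 CPM under the EV-proficient label and 32.1, 28.5 and 17.9 under the EV-deficient label. The DMSO groups overlapped and every paclitaxel library was above them. Its log2 fold changes, 3.52 ± 0.26 and 5.76 ± 0.26, were larger than those of Irgm1.

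Igtp, the remaining regulator, started at 1.05, 1.46 and 1.23 CPM in EV-proficient DMSO and at 0.571, 0.688 and 0.789 in EV-deficient DMSO. It rose to 6.40, 7.29 and 5.502 CPM with paclitaxel in libraries labelled EV-proficient and to 22.8, 22.9 and 12.9 in those labelled EV-deficient. All 4 groups were separate, with EV-deficient DMSO the lowest. The log2 fold changes under paclitaxel were 2.37 ± 0.22 and 4.84 ± 0.23.

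Iigp1, the effector among the IRG members, was absent or at the edge of detection without drug. It had 0 counts in the 3 EV-proficient DMSO libraries and 0, 0 and 1 counts in EV-deficient DMSO. Under paclitaxel it had 56, 74 and 29 counts (1.11, 1.30 and 1.17 CPM) with the EV-proficient label and 785, 539 and 317 counts (14.6, 11.7 and 5.20 CPM) with the EV-deficient label. Against a floor of 3 counts per library it was at least 15.4-fold higher with paclitaxel in libraries labelled EV-proficient. In those labelled EV-deficient the ratio of summed counts per library size was 1526, with an exact 95% counting interval from 274 to 60322, and the value against the floor was 173-fold. The paclitaxel groups did not overlap, and the lowest EV-deficient library stood above the highest EV-proficient one.

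Among the GBPs of chromosome 3, Gbp2, which is anchored to membranes by a lipid tail and helps to break pathogen vacuoles, read 2.90, 3.37 and 2.84 CPM in EV-proficient DMSO and 1.87, 2.92 and 3.14 in EV-deficient DMSO. Paclitaxel libraries read 12.1, 11.99 and 11.4 CPM with the EV-proficient label and 40.8, 33.4 and 22.0 with the EV-deficient label. The DMSO groups overlapped, and the EV-deficient paclitaxel libraries were the most spread. The log2 fold changes were 1.96 ± 0.20 and 3.61 ± 0.20.

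Gbp3, its neighbour, read 1.39, 1.24 and 0.878 CPM in EV-proficient DMSO and 0.910, 0.688 and 0.811 in EV-deficient DMSO. With paclitaxel it read 6.38, 7.12 and 7.24 CPM under the EV-proficient label and 25.1, 24.4 and 13.9 under the EV-deficient label. Its DMSO groups overlapped and its paclitaxel groups were separate, and the log2 fold changes were 2.54 ± 0.22 and 4.70 ± 0.22.

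Gbp7, a member linked to oxidative and autophagic defence, read 1.27, 1.29 and 1.05 CPM in EV-proficient DMSO and 0.571, 1.04 and 0.855 in EV-deficient DMSO. It read 12.2, 8.93 and 9.22 CPM in EV-proficient paclitaxel and 32.4, 30.7 and 21.1 in EV-deficient paclitaxel. The DMSO groups were separate by a narrow margin, 1.05 against 1.04 CPM. Its log2 fold changes were 3.06 ± 0.21 and 5.10 ± 0.21.

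Gbp5, which promotes assembly of the NLRP3 inflammasome, was scarce. It had 0, 4 and 1 counts in EV-proficient DMSO and 1, 4 and 1 in EV-deficient DMSO, just above the floor, and rose to 0.711, 1.16 and 0.283 CPM and to 1.68, 2.83 and 1.44 CPM in the paclitaxel libraries with these labels. The lowest of these, EV-proficient paclitaxel replicate 3, rested on 7 counts in the shallowest library. The log2 fold changes, 4.06 ± 0.71 and 5.53 ± 0.66, had the widest errors of the members for which one is given.

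On chromosome 5, Gbp9 read 1.17, 0.862 and 1.08 CPM in EV-proficient DMSO and 0.892, 0.959 and 0.746 in EV-deficient DMSO. It read 7.08, 5.78 and 3.80 CPM in EV-proficient paclitaxel and 18.6, 18.9 and 12.99 in EV-deficient paclitaxel. The groups kept the common order, with log2 fold changes of 2.44 ± 0.23 and 4.27 ± 0.22. Gbp6 had 0 counts in all 3 EV-proficient DMSO libraries and 2, 2 and 0 in EV-deficient DMSO, just inside the floor. Under paclitaxel it had 21, 21 and 2 counts with the EV-proficient label and 153, 112 and 86 with the EV-deficient label, which is 2.85, 2.42 and 1.41 CPM. It was at least 3.72-fold higher with paclitaxel in libraries labelled EV-proficient; in those labelled EV-deficient the ratio was 81.6, with an exact 95% counting interval from 31.6 to 301, and 36.8-fold against the floor. Of the 50-base stretches of Gbp6 transcripts, 70.7% also occur in other genes, mostly Gm43302, so its count is uncertain, whereas for the other 9 members this share was 0.379% (Irgm1) to 12.7% (Gbp7).

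**Figure D2:**
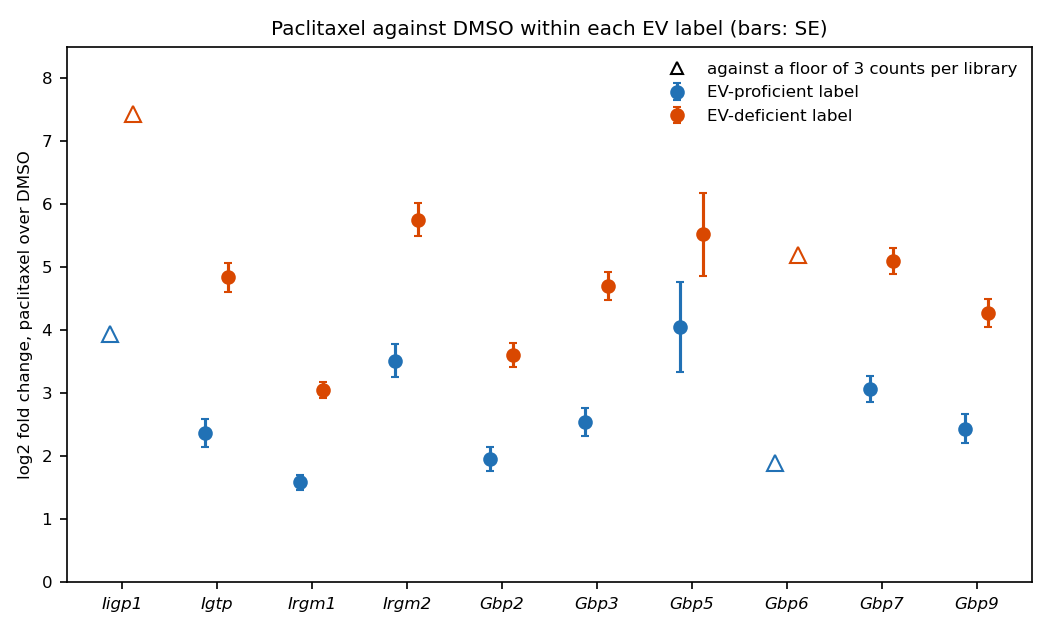
Log2 fold change of each member under paclitaxel over DMSO, within libraries of each EV label. Filled points are fitted values with their SE, and open triangles are the values of Iigp1 and Gbp6 against a floor of 3 counts per library; the point for the EV-deficient label lies above the other in each of the 8 members with fitted values, while the triangles are bounds and do not order the responses.

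All 10 members were called higher with paclitaxel within each label by edgeR's quasi-likelihood test, beside 31.1% of all genes called higher and 27.1% called lower (58.2% in either direction) for the EV-proficient label. For the EV-deficient label these shares of all genes were 32.4%, 30.5% and 62.9%, and for the mean over both labels 37.1%, 31.3% and 68.4%. In 10 of 10 members the groups did not overlap, against 33.1% and 35.2% of all genes that were higher without overlap. These responses are among the values that chose the members. The median log2 fold change over the members was 2.80 (2.49 with members at the floor set to their bounds) with the EV-proficient label and 4.97 with the EV-deficient label, beside 0.052 and 0.075 over all genes tested. Averaged over both labels, which gives the same value if the DMSO labels are crossed, the fold changes of the 8 members above the floor ran from 2.32 ± 0.08 for Irgm1 to 4.79 ± 0.48 for Gbp5. With the DMSO libraries crossed, these 8 members ran from 1.80 (Irgm1) to 4.13 (Gbp5) in EV-proficient paclitaxel and from 2.84 (Irgm1) to 5.45 (Gbp5) in EV-deficient paclitaxel, and Iigp1 was at least 135-fold higher in EV-deficient paclitaxel than in EV-proficient DMSO.

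Per kilobase of exon, which allows genes to be compared, Irgm1 led in every group, with 2.64 ± 0.15 CPM per kb (SD, n = 3) in EV-proficient DMSO and 18.9 ± 4.25 in EV-deficient paclitaxel. Gbp2 followed at 12.7 ± 3.76 and Igtp at 9.66 ± 2.83 in EV-deficient paclitaxel. Irgm2 stood at 7.09 ± 2.01 and Gbp3 at 6.47 ± 1.91, within their spread of each other. Gbp7 (5.00 ± 1.09) and Gbp9 (3.25 ± 0.64) came next. Iigp1, Gbp6 and Gbp5 closed the order at 1.80 ± 0.83, 0.374 ± 0.124 and 0.299 ± 0.112. The 3 regulatory IRG members thus stood above the effector Iigp1 in each group.

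**Figure D3:**
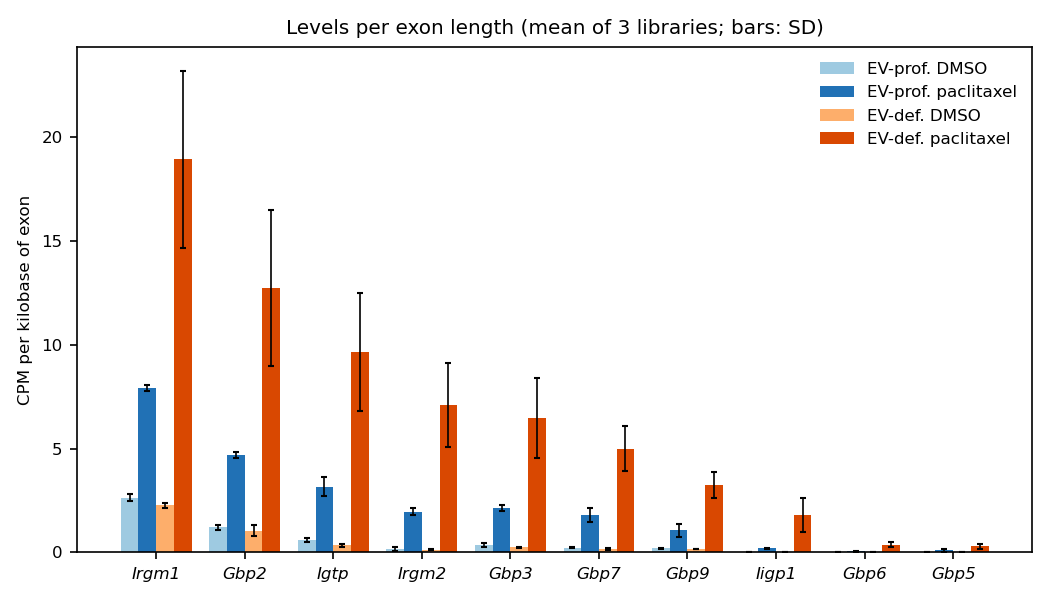
Mean level of each member in the 4 groups in CPM per kilobase of exon on a linear axis that starts at 0, with the SD of 3 libraries as bars. Irgm1, Gbp2 and Igtp have the tallest bars in EV-deficient paclitaxel, and Gbp5 and Gbp6 are barely visible at this scale.

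Within EV-deficient paclitaxel, replicate 3 was the lowest library for 10 of 10 members, with log2 differences of -0.53 to -1.34 from the mean of the other 2. It was also the lowest for 12 of 12 type I interferon markers, with a median log2 difference of -1.25, and for 12 of the 17 tested relatives described below (70.6%), whose log2 differences ran from -1.49 to 0.64 with a median of -0.56. Over 13180 genes at 1 CPM or more in the group it was the lowest for 37.3%, and the median difference was -0.014. The members thus stood lower together in this library, and the relatives only in part. Without this library the log2 differences between labels under paclitaxel were larger for each member, from 1.43 ± 0.07 for Irgm1 to 3.45 ± 0.23 for Iigp1.

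Between the labels without drug, 1 of 10 members was called, where 23.0% of all genes were called in either direction, 12.4% higher and 10.6% lower. The DMSO libraries also enter the paclitaxel responses and the interaction, which were known when the members were chosen. The p-values of members given here are therefore not independent of that choice. Igtp was lower in EV-deficient DMSO (0.683 ± 0.109 CPM, SD, n = 3) than in EV-proficient DMSO (1.25 ± 0.21), with a log2 fold change of -0.88 ± 0.27 and an adjusted p of 0.0212 in edgeR's quasi-likelihood test with Benjamini-Hochberg adjustment. The values of the 3 libraries of each label did not overlap. Irgm1 (-0.21 ± 0.12, adjusted p = 0.234 by edgeR) and Gbp7 (-0.57 ± 0.26, adjusted p = 0.12 by edgeR) were also lower in every EV-deficient library without passing the test. For Gbp3 the log2 fold change was -0.55 ± 0.26, for Irgm2 -0.39 ± 0.36, for Gbp9 -0.25 ± 0.26 and for Gbp2 -0.21 ± 0.21, with groups that overlapped. Thus 3 of 10 members were lower without overlap, against 18.5% of all genes, and 24.8% of all genes were higher without overlap. The call on Igtp was lost with limma-voom (adjusted p = 0.335) and without either EV-proficient DMSO replicate 2 (0.109) or 3 (0.0503) or EV-deficient DMSO replicate 1 (0.104) or 2 (0.0529), while without EV-deficient paclitaxel replicate 3, which shares the estimate of spread, 3 members were called.

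Under paclitaxel the members were higher in libraries labelled EV-deficient. The log2 difference was 3.13 ± 0.31 for Iigp1 and 2.82 ± 0.48 for Gbp6, the largest of the 10. It was 1.85 ± 0.20 for Irgm2, 1.61 ± 0.18 for Gbp3, 1.60 ± 0.18 for Igtp and 1.57 ± 0.19 for Gbp9. Gbp7 (1.47 ± 0.16), Gbp2 (1.43 ± 0.17), Gbp5 (1.39 ± 0.46) and Irgm1 (1.25 ± 0.11) had the smaller differences. All 10 were called higher, where 16.0% of all genes were called higher, 21.8% lower and 37.8% in either direction, and 10 of 10 did not overlap, where 19.9% of all genes were higher without overlap; the earlier results that chose the members hold this contrast too. The call on Gbp5 was lost without EV-proficient paclitaxel replicate 1 or 3 or EV-deficient paclitaxel replicate 2.

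**Figure D4:**
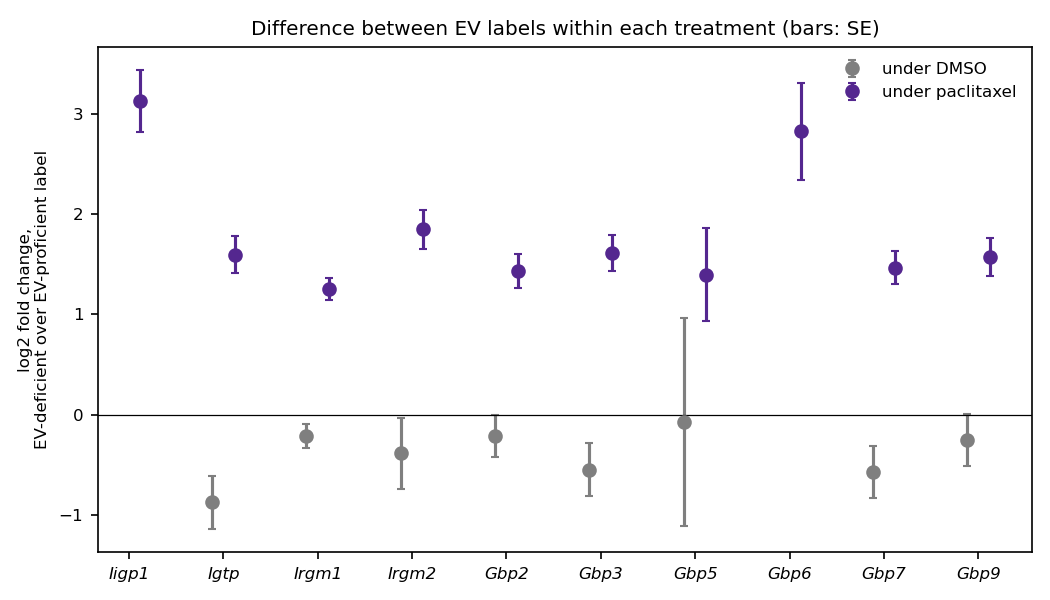
Log2 difference between libraries labelled EV-deficient and EV-proficient within DMSO (grey) and within paclitaxel (purple), with SE; values above 0 are higher in the EV-deficient label. Under DMSO, Iigp1 and Gbp6 are not drawn because both groups were at the floor; the 8 other members lie at or below 0 there, and all 10 lie above 1 under paclitaxel.

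The interaction, the paclitaxel response with the EV-deficient label minus that with the EV-proficient label, was 2.47 ± 0.32 for Igtp, 2.24 ± 0.41 for Irgm2 and 1.47 ± 0.16 for Irgm1 on the log2 scale. Among the GBPs it was 2.16 ± 0.32 for Gbp3, 2.04 ± 0.30 for Gbp7, 1.83 ± 0.32 for Gbp9 and 1.65 ± 0.27 for Gbp2. These 7 were called, where 16.9% of all genes were called in the same direction, 23.8% in the other and 40.7% in all, and this too is a description of values that chose the members. With the DMSO libraries crossed, an alternative added after seeing the data, the interaction was smaller for each of these 7: 0.72 ± 0.33 for Igtp, 0.90 ± 0.31 for Gbp7, 1.04 ± 0.16 for Irgm1, 1.06 ± 0.32 for Gbp3, 1.22 ± 0.27 for Gbp2, 1.32 ± 0.32 for Gbp9 and 1.46 ± 0.41 for Irgm2. Igtp went from the highest of the 7 to the lowest, and the calls on Igtp and Gbp7 were lost, where 3.41% of all genes were then called in the same direction and 6.20% in the other. Gbp5 (1.47 ± 1.21) was not called, and for Iigp1 and Gbp6 no value is given because their DMSO groups were at the floor.

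Relatives outside the 10 give a wider view of both families. Of 24 relatives listed, 22 were in the table and 17 passed the filter. Some of them passed only through the paclitaxel groups, where they were high. The counts of calls, and the values of those genes, are therefore a description. With paclitaxel, 12 of the 17 were called higher and 1 lower in libraries labelled EV-proficient, and 16 higher and 0 lower in those labelled EV-deficient, where 31.1% and 27.1%, and 32.4% and 30.5%, of all genes were. Against the crossed DMSO libraries, 15 were called higher and 1 lower, and 16 higher and 0 lower. Their median log2 fold changes were 2.70 (2.05 with bounds) and 4.93 (4.56 with bounds), beside 0.052 and 0.075 over all genes. Under paclitaxel 16 of 17 were called higher with the EV-deficient label, where 16.0% of all genes were. The other, 9930111J21Rik1, was also higher in every EV-deficient library without passing the test (0.73 ± 0.34, adjusted p = 0.0991 by edgeR).

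Among relatives of the IRG effectors, Tgtp1 (Irgb6) went from 0.146 to 0.215 CPM in EV-proficient DMSO to 2.51 to 3.40 CPM with paclitaxel, a log2 fold change of 3.97 ± 0.36. With the EV-deficient label it went from at most 0.143 CPM to 7.94 to 17.9 CPM, a change of 7.27 ± 0.37. Tgtp1 passed the filter only through the paclitaxel groups, so no p-value is given for it. Its near copy Tgtp2 shares 86.6% of its 50-base stretches with other genes, mainly Tgtp1, so reads may be split between them. For Tgtp2 the ratio of summed counts with paclitaxel over DMSO was 67.7 (exact 95% counting interval 18.4 to 564) with the EV-proficient label and 341 (116 to 1658) with the other. Ifi47 (Irgd) rose by 3.76 ± 0.37 and 5.64 ± 0.36, and Gm12250 by 2.12 ± 0.42 and 3.30 ± 0.37. Crossed, Tgtp1 rose by 5.06 and 6.17, and Gm12250 by 1.5002 and 3.92. Gm4951, whose shared stretches are mostly with Iigp1, had 0 counts in the 6 DMSO libraries, 21, 0 and 3 in EV-proficient paclitaxel and 215, 118 and 71 in EV-deficient paclitaxel, at least 42.5-fold higher there. 9930111J21Rik2 rose by 1.73 ± 0.14 and 2.79 ± 0.14. 9930111J21Rik1 rose by 1.17 ± 0.38 and 1.75 ± 0.36, but 83.2% of its 50-base stretches are shared, mostly with 9930111J21Rik2 (59.8% shared), so these rows are not separate evidence. Gm12185 rose by 4.93 ± 0.48 with the EV-deficient label, and Gm5431, at 0 counts in EV-proficient DMSO, was at least 4.27-fold higher with paclitaxel.

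Of the GBP relatives on chromosome 5, Gbp4 read 1.15, 1.10 and 0.761 CPM in EV-proficient DMSO and 1.72, 2.30 and 0.931 CPM in EV-proficient paclitaxel, so that the groups overlapped (log2 fold change 0.76 ± 0.28, adjusted p = 0.0222 by edgeR). This call was lost with limma-voom, in a fit of only the groups compared, and without EV-proficient DMSO replicate 3 or EV-proficient paclitaxel replicate 1 or 2 (adjusted p from 0.0591 to 0.272), and with the DMSO libraries crossed the value was 1.19 ± 0.28 (adjusted p = 0.000951 by edgeR). In libraries labelled EV-deficient it went from 0.646 to 0.855 CPM to 6.05 to 8.81 CPM, a change of 3.31 ± 0.27 (adjusted p = 6.26e-10 by edgeR). Gbp8 also passed the filter only through the paclitaxel groups, so no p-value is given for it. With paclitaxel it was 1.08 ± 0.58 higher under the EV-proficient label, short of the threshold, and 3.38 ± 0.57 higher under the EV-deficient label. Crossed, it was 1.91 ± 0.60 and 2.55 ± 0.55 higher. Gbp10 rose by 3.27 ± 0.81 and 5.42 ± 0.67, and shares 84.1% of its 50-base stretches with other genes, chiefly Gbp6.

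Among the very large inducible GTPases, Gvin1 read 0.658, 0.718 and 0.761 CPM in EV-proficient DMSO and 1.03, 0.404 and 0.243 in EV-proficient paclitaxel, a log2 difference of -0.27 ± 0.39 (adjusted p = 0.58 by edgeR). With the DMSO libraries crossed this became 1.27 and was called higher (adjusted p = 0.016 by edgeR), so the direction depends on the DMSO labels. With the EV-deficient label it rose by 4.56 ± 0.39 (adjusted p = 1.35e-09 by edgeR), from 0.107, 0.354 and 0.285 CPM to 6.06, 5.82 and 5.51 CPM. These EV-deficient paclitaxel libraries lay close together, replicate 3 included. Gm4070 gave 0.04 ± 0.41 and 5.32 ± 0.43 (2.05 and 3.32 with the DMSO libraries crossed), but 97.8% of its 50-base stretches are shared, mostly with Gvin1, and both may report the same transcripts. These were also the 2 of 17 relatives called between labels without drug, where 10.6% of all genes were called lower; they were lower in EV-deficient DMSO by -1.53 ± 0.43 (Gvin1, adjusted p = 0.0117 by edgeR) and -2.01 ± 0.50 (Gm4070, adjusted p = 0.00525 by edgeR). Gm8995 was at most at the floor in both DMSO groups and stood at a mean of 0.322 CPM and 1.37 CPM in the paclitaxel groups, and Gm8979, with 85.8% of its stretches shared, had at most 2 counts in an EV-proficient library, 7, 0 and 0 counts in EV-deficient DMSO and 22, 31 and 48 in EV-deficient paclitaxel. Irgq, an IRG-like gene, read 33.4 to 37.6 CPM in EV-proficient DMSO and 27.7 to 31.7 CPM in EV-proficient paclitaxel (-0.29 ± 0.07, adjusted p = 0.00231 by edgeR), and differed by -0.0072 ± 0.07 with the EV-deficient label.

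Interferon transcripts themselves were at the limit of detection. Of 20 ligand genes 1 passed the filter, Ifnab, a type I interferon. It passed through EV-deficient paclitaxel, with 19 to 25 counts per library there and at most 7 in a DMSO library. Its values are therefore a description with no p-value. The log2 fold change with paclitaxel was 2.18 ± 0.69 in libraries labelled EV-deficient and 1.46 ± 0.78 in those labelled EV-proficient. With the DMSO libraries crossed these values were 2.54 and 1.10. Ifng, the gene of interferon gamma, had 0 to 2 counts per library with the EV-proficient label under either treatment; with the EV-deficient label it had 0 under DMSO and 3 to 15 under paclitaxel. Ifnb1, the gene of interferon beta, had 0 to 3 and 1 to 5 counts (EV-proficient, DMSO and paclitaxel) and 0 to 1 and 6 to 10 counts (EV-deficient). Neither was tested.

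The receptors and kinases rose by far less than the members. Of 9 tested, 7 were called higher with paclitaxel with the EV-proficient label and 9 with the EV-deficient label, where 31.1% and 32.4% of all genes were, with medians of 0.47 and 1.27. When the DMSO libraries were crossed, 8 were called in each label and the medians were 0.97 and 0.81, so which label had the larger response depends on the DMSO labels. Ifngr1 and Ifngr2, the chains of the interferon gamma receptor, rose by 0.47 ± 0.07 and 0.48 ± 0.07 in libraries labelled EV-proficient and by 1.27 ± 0.07 and 1.54 ± 0.07 in those labelled EV-deficient. The chains of the type I receptor rose by 0.39 ± 0.07 (Ifnar1) and 0.40 ± 0.12 (Ifnar2), and by 0.75 ± 0.07 and 1.01 ± 0.12. The kinase Jak2 rose by 0.78 ± 0.09 and 1.81 ± 0.09, and Ifnlr1, a receptor of interferon lambda, by 0.91 ± 0.11 and 1.37 ± 0.11. Crossed, Ifngr1 changed by 0.70 and 1.04, Ifngr2 by 0.97 and 1.05, and Jak2 by 1.20 and 1.40, while for Ifnar1 (0.62 and 0.52), Ifnar2 (0.81 and 0.60) and Ifnlr1 (1.18 and 1.10) the EV-proficient value became the larger. Without drug 6 of the 9 were called lower in the libraries labelled EV-deficient DMSO, where 10.6% of all genes were, and this direction rests on the DMSO labels; among them were Ifngr2 (-0.49 ± 0.07, adjusted p = 2.99e-05 by edgeR) and Jak2 (-0.42 ± 0.09, adjusted p = 0.00179 by edgeR).

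Of 9 genes tested on the list of STAT and IRF factors, which also holds Nlrc5, an activator of MHC class I genes of another family, 7 were called higher in libraries labelled EV-proficient, and 8 higher and 1 lower in those labelled EV-deficient; the lower one, Irf3 (-0.34 ± 0.09), was named after its value was seen. The shares of all genes called higher were 31.1% and 32.4%, and crossed, 8 were called higher in each label and Irf3 again lower with the EV-deficient one. Stat2, a factor of the type I pathway, rose by 0.89 ± 0.12 with the EV-proficient label and 2.64 ± 0.13 with the EV-deficient label, and its partner Irf9 by 1.34 ± 0.12 and 2.23 ± 0.12. Irf7, the amplifier of type I interferon, rose the most, by 4.03 ± 0.23 and 5.09 ± 0.22, and Nlrc5 by 2.59 ± 0.20 and 3.00 ± 0.19. Irf1, a transcription factor that interferon gamma induces, rose by 0.60 ± 0.09 and 1.13 ± 0.09 from a high level of 42.7 ± 1.79 CPM in EV-proficient DMSO. When the DMSO libraries were crossed, Stat2 gave 1.44 ± 0.13 and 2.08 ± 0.12. Irf8, a factor of myeloid cells named after its values were seen, moved further and its labels changed order, from 0.075 ± 0.22 (adjusted p = 0.796 by edgeR) and 2.71 ± 0.24 to 2.03 ± 0.25 and 0.76 ± 0.22.

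Of 6 inhibitors of the pathway, 3 were called higher in each label, crossed or not, where 31.1% and 32.4% of all genes were. Socs3, a feedback inhibitor named after its value was seen, was called lower with the EV-deficient label (-0.26 ± 0.11, and the same crossed), where 30.5% of all genes were. Usp18, a brake on the type I receptor, rose by 4.03 ± 0.29 and 5.65 ± 0.28. Ptpn6 rose by 1.14 ± 0.12 and 0.64 ± 0.12, and Pias1 by 0.44 ± 0.09 and 0.29 ± 0.09 (0.32 and 0.41 crossed). Socs1, which blocks the Janus kinases and is an early interferon gamma target, differed by -0.15 ± 0.32 and -0.21 ± 0.31 (adjusted p = 0.703 and 0.572 by edgeR) and overlapped between groups. The plot of the signalling genes sets these against one another.

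**Figure D5:**
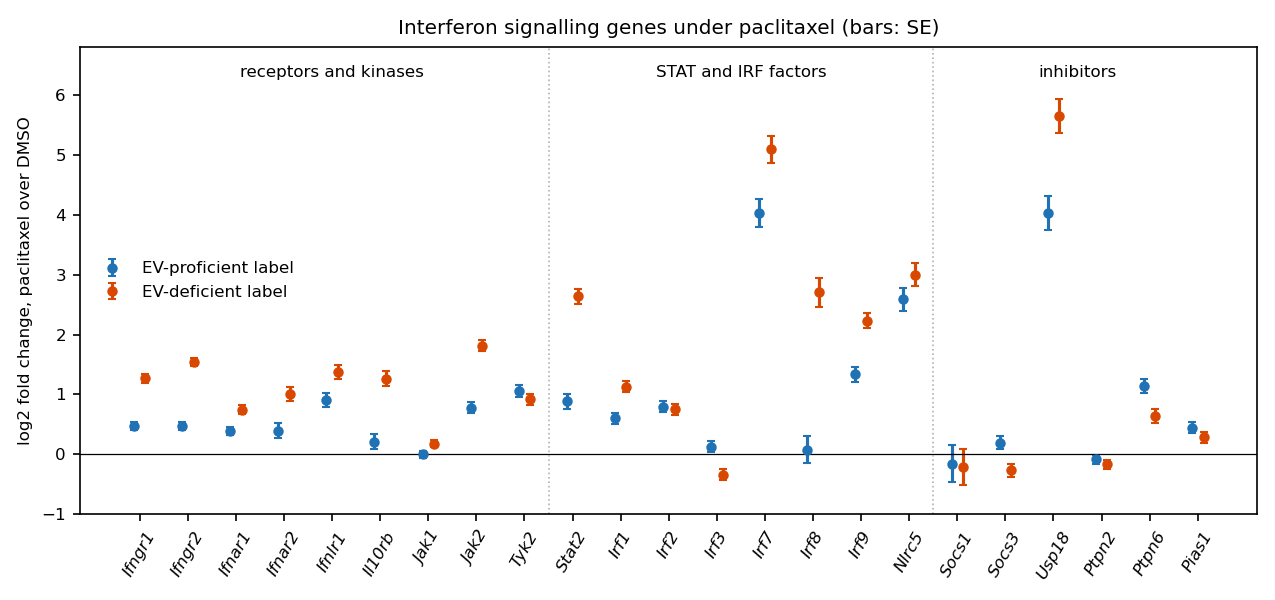
Log2 fold change under paclitaxel over DMSO, with SE, of genes of interferon signalling in libraries of each EV label, ordered as receptors and kinases, STAT and IRF factors, and inhibitors. Irf7 and Usp18 stand far above the receptors, and Socs1 lies at 0 within its error in both labels.

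Other targets of interferon were set beside the members. All 12 type I interferon markers were called higher with paclitaxel in each label, with medians of 4.84 and 6.44, where 31.1% and 32.4% of all genes were called higher, and all 12 were also called with the DMSO libraries crossed. Ifit3, an RNA-binding antiviral protein, rose by 5.52 ± 0.43 and 7.76 ± 0.39, and Oas2 was 2.96 ± 0.40 higher with the EV-deficient than with the EV-proficient label under paclitaxel. Ifi44 rose by 5.83 ± 0.43 in EV-proficient paclitaxel and, crossed, by 7.50 ± 0.41 in EV-deficient paclitaxel, both against EV-proficient DMSO. The other DMSO group was at the floor for Ifi44, so its order of labels is not given. Between labels under paclitaxel 11 of the 12 were called higher with the EV-deficient label and 1 lower, Oasl1, named after its value was seen (-0.51 ± 0.19, adjusted p = 0.0374 by edgeR, with groups that overlapped), where 16.0% of all genes were called higher and 21.8% lower. Oasl1 rose by 4.47 ± 0.25 with the EV-proficient and 1.80 ± 0.20 with the EV-deficient label, but by 2.32 ± 0.20 and 3.96 ± 0.25 with the DMSO libraries crossed, so the order of the labels rests on the DMSO labels. Of 10 markers of interferon gamma and MHC class II, 6 passed the filter and 5 were called higher in each label, against the same shares of all genes, and 4 and 5 crossed. Nos2, the inducible nitric oxide synthase, rose by 2.91 ± 0.17 and 4.08 ± 0.16, and Cd74, the invariant chain, by 2.49 ± 0.29 and 4.21 ± 0.30 (3.20 and 3.50 crossed). Ciita, the activator of MHC class II genes, rose by 2.24 ± 0.85 with the EV-deficient label (adjusted p = 0.0274 by edgeR), with groups that overlapped; EV-proficient DMSO was at the floor, so no crossed value is given for this label, and against EV-deficient DMSO the EV-proficient paclitaxel libraries were 1.56 ± 0.89 higher (adjusted p = 0.139 by edgeR).

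Partners of the GTPases were also listed. Of 7 genes of the caspase-11 and inflammasome list, 6 were called higher with the EV-proficient label and 5 with the EV-deficient label (5 and 6 with the DMSO libraries crossed), where 31.1% and 32.4% of all genes were. Casp4, which encodes caspase-11, rose by 3.01 ± 0.24 and 4.05 ± 0.23, Casp1 by 4.18 ± 0.40 and 5.23 ± 0.38, and the nucleic acid sensor Zbp1 by 2.49 ± 0.29 and 3.80 ± 0.29. Of 13 genes of ATG8 conjugation and ubiquitin tagging, which direct IRGs and GBPs to vacuoles, 5 were called higher and 3 lower with the EV-proficient label and 6 higher and 3 lower with the EV-deficient label, where 31.1% and 27.1%, and 32.4% and 30.5%, of all genes were. Crossed, these counts were 6 and 3, and 7 and 4. Trim21 (1.38 ± 0.19 and 2.49 ± 0.19), Map1lc3a (1.08 ± 0.09 and 0.93 ± 0.09) and Gabarapl1 (1.06 ± 0.08 and 0.35 ± 0.08) rose; crossed, Gabarapl1 gave 0.64 and 0.77, so the order of the labels turned. Among 5 enzymes of prenylation, which attach or then process the lipid-bearing end of proteins such as Gbp2 and Gbp5, none was called higher, and 3 and 4 were called lower (5 and 4 crossed), where 27.1% and 30.5% of all genes were. Rce1, a protease that acts after the lipid is attached, changed by -0.51 ± 0.08 and -0.62 ± 0.08 (-0.31 and -0.83 crossed), Icmt, the methyltransferase that follows it, by -0.34 ± 0.08 and -0.64 ± 0.08, and Fnta, a subunit of the enzymes that attach the lipid, by -0.48 ± 0.07 and -0.24 ± 0.07 (-0.30 and -0.43 crossed).

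Markers of other cell types summed to far less than those of epithelium in every group, and their part in these results was not tested. In a bulk sample fewer cells of a type and less RNA per cell cannot be told apart. The 8 leukocyte markers summed to 7.50 to 8.52 CPM in EV-proficient DMSO, 39.9 to 44.7 after paclitaxel with that label, 20.9 to 21.6 in EV-deficient DMSO and 26.5 to 47.1 with drug there, so the sum moved with paclitaxel but not in the order of the members. Nearly all of it was Cd68 and Csf1r. The pan-leukocyte gene Ptprc averaged 0.396 to 1.01 CPM over the groups, and the macrophage gene Adgre1 had at most 4 counts in a DMSO library and 0 in all 6 paclitaxel libraries. The T cell gene Cd3e was at 0 in every EV-deficient paclitaxel library. The 6 fibroblast markers summed to 1.68 to 2.55 CPM in EV-proficient DMSO and 2.69 to 3.49 in EV-deficient DMSO, and to 5.38 to 6.75 and 6.81 to 8.53 in the paclitaxel libraries with these labels. The 4 endothelial markers summed to 2.39 to 2.60 and 1.77 to 2.52 CPM without drug and to 2.75 to 3.06 and 3.28 to 4.35 CPM with it. Both sums were thus highest in EV-deficient paclitaxel and next in EV-proficient paclitaxel, as in the members, with paclitaxel groups that did not overlap. Without drug the fibroblast sum was higher with the EV-deficient label, where Igtp, Irgm1 and Gbp7 were lower.

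Outside the lists, the genes whose log2 CPM followed the members' average profile most closely over the 12 libraries, among 11632 genes with a mean of at least 1 CPM, were Cstb, Ifi204, Nucb2, Cxcl10 and Dhx58. Their Pearson coefficients lay between 0.9913 and 0.9959, a measure of likeness that mostly reflects the 4 groups and carries no p-value. Cstb, a protease inhibitor, went from 64.9 ± 2.13 CPM in EV-proficient DMSO and 60.4 ± 2.06 in EV-deficient DMSO to 115 ± 0.253 and 154 ± 10.2 with paclitaxel (SD, n = 3). Cxcl10, the chemokine named for its induction by interferon gamma, went from 6.67 ± 0.15 and 5.495 ± 0.49 CPM to 19.8 ± 1.22 and 58.3 ± 15.4. Ifi204, a DNA sensor, went from 4.82 ± 0.58 and 3.92 ± 0.21 CPM to 21.6 ± 1.49 and 46.7 ± 14.3. Dhx58, a regulator of RNA sensing, reached 9.06 ± 3.47 CPM and Nucb2 51.9 ± 2.41 CPM in EV-deficient paclitaxel.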

How the data were processed

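Polyadenylated RNA was sequenced from 12 libraries, 3 per group, prepared with a stranded kit per the labels' protocols. STAR 2.5.0a and GRCm38 are named in the submitters' processing notes; the counting program, its strand setting and the annotation are not given in the sources used here. The deposited data are raw whole-number counts for each gene in 1 table by the authors, with no scaling. The 2 rows that the authors added (gfp and dngfr) were left out of library sizes and tests, and 0 columns belonged to other samples.

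Testing used edgeR 4.0.16 under R 4.3.3: filterByExpr (minimum count 10) kept 18108 of 35104 detected genes, TMM factors ran from 0.890 to 1.146, and all 12 libraries entered 1 quasi-likelihood fit of the 4 group means. P-values were adjusted by Benjamini-Hochberg over all genes tested, with a threshold of 0.05, and every "called", "rose" or "fell" refers to this test. SE is that of the log2 fold change. The members and lists were chosen with earlier results of these data known. Named genes were the members, the relatives tested, at most 3 genes per list by the mean paclitaxel effect, a fixed set of signalling genes and the 5 most alike genes. Irf3, Irf8, Socs3 and Oasl1 were added after their values were seen, and some cell type markers are also named. Counting intervals (exact, 95%) and floors (3 counts per library) cover counting error only: without molecular identifiers, reads can be copies of one molecule. No pair of replicates agreed within sampling noise (chi-square per degree of freedom 4.2 to 27.8). Alternatives were other scalings, filters, DESeq2 1.42.0, limma-voom (limma 3.58.1), a replicate block, only the groups compared, crossed DMSO labels and leaving out each library. The count tests were first tested on simulated data. Exon lengths, positions and shared 50-base stretches come from GENCODE M21, and promoters from RefSeq. Some listed genes are not reported here by name.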

Additional observations from a re-analysis of the deposited data

Results flagged for a closer look

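The difference in paclitaxel response between the EV labels was called for 7 members by edgeR's quasi-likelihood interaction, which called 40.7% of all genes. The log2 differences were 2.47 for Igtp, 2.24 for Irgm2, 2.16 for Gbp3, 2.04 for Gbp7, 1.83 for Gbp9, 1.65 for Gbp2 and 1.47 for Irgm1. The members were chosen with this contrast known, so their calls are a description. With the DMSO libraries crossed between labels, the differences were 0.72, 1.46, 1.06, 0.90, 1.32, 1.22 and 1.04 in the same order, and the calls on Igtp and Gbp7 were lost.

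The same difference passed in 8 of 17 relatives tested, all with the more positive value in libraries labelled EV-deficient. Of all genes, 16.9% were called in that direction, 23.8% in the other and 40.7% in all. The difference was 5.28 for Gm4070 (adjusted p = 5.23e-07 by edgeR) and 4.82 for Gvin1 (4.13e-07), 2 genes that share nearly all of their sequence. It was 2.55 for Gbp4 (adjusted p = 1.55e-05 by edgeR), 1.88 for Ifi47 (0.0143) and 1.07 for 9930111J21Rik2 (0.000173). For Tgtp1 (3.30) and Gbp8 (2.30), kept by the filter only through the paclitaxel groups, the value is a description with no p-value. Irgq had the smallest, 0.28 (0.037). With the DMSO libraries crossed, the calls on Gbp4 (1.69) and 9930111J21Rik2 (1.42) held, and those on Gm4070 (1.26), Gvin1 (1.75), Tgtp1 (1.11), Gbp8 (0.64), Ifi47 (1.18) and Irgq (0.15) were lost. A call was gained on Gm12250 (2.42 ± 0.57, adjusted p = 0.01 by edgeR), where 3.41% of all genes were called in that direction. Gm12185 and Gm8979 also passed, but rested on groups at the floor and are not counted here.

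Counts on the dngfr row, which was left out of the tests and given only beside the labels, averaged 10.9 CPM in EV-deficient paclitaxel against 2.15 CPM in EV-deficient DMSO.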

How the results depend on the processing

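All 10 members were called higher with paclitaxel in each label and over both labels under every alternative run, crossed labels included, except in a fit of only the groups compared. That fit called 9 with the EV-proficient label, because the low-count filter dropped Gbp6 from it (0 counts in DMSO and 21, 21 and 2 with paclitaxel). Leaving out each library in turn gave 9 to 10 members called between labels under paclitaxel, 7 for the interaction and 0 to 3 between labels without drug, where limma-voom called 0 and a fit of only the groups compared called 2. With crossed labels, added for the interaction and the listed genes after seeing the data, 1739 genes in place of 7370 were called for the interaction, and 6 members in place of 7 (Igtp and Gbp7 lost, and Gbp6, at the floor in DMSO, gained). With 4 bases inside the GAS in place of 3, the motif was found in 1 member. The replicate numbers do not pair the libraries (same-number correlations of deviations -0.0812 to 0.097). With the replicate block the members called numbered 10, 10, 10, 1, 10 and 7 over the 6 comparisons, as without it, and all genes called went from 10538 to 10520 for paclitaxel with the EV-proficient label.

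Some directions turned. Between labels without drug, Gbp5 became 0.152 and Gbp10 -0.0618 with limma-voom. Over left-out libraries, Gbp5 ran there from -1.01 to 1.43 (above 0 without EV-proficient DMSO replicate 2 or EV-deficient DMSO replicate 1 or 3), Gbp10 from -1.75 to 1.8, 9930111J21Rik1 from -0.241 to 0.4 and Irgm2 from -0.607 to 0.0735 (above 0 without EV-proficient DMSO replicate 3). The Gbp5 interaction ran from -0.0457 (without EV-proficient DMSO replicate 2) to 2.4, and Gm4070 under paclitaxel with the EV-proficient label from -0.159 to 0.376. Gvin1 became 1.27 there with crossed labels (adjusted p = 0.016). With the EV-deficient label Irgq became 0.0114, 0.177, 0.0567, 0.0115 and 0.00538 with median-of-ratios scaling, upper-quartile scaling, the 1 CPM filter, DESeq2 and only the groups compared. Of these, the upper-quartile value was called higher (adjusted p = 0.0348 by edgeR). The cause was not tested.

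Upper-quartile scaling moved the median of all genes by 0.18 for paclitaxel with the EV-deficient label, 0.12 for the mean over labels and 0.12 for the interaction, and the share of calls that were higher from 51.5% to 63.4% (paclitaxel, EV-deficient label), 42.4% to 58.2% (labels under paclitaxel) and 41.4% to 53.9% (interaction). Depth limits Iigp1, Gbp5, Gbp6 and the ligands in DMSO.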
